A study of Mus musculus with 3 samples.

Results

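Microglia that a flow sort placed in the CD45- fraction were compared with those placed in the CD45+ fraction of the same mouse gliomas. The microglia were chosen by their own transcripts: a cell counted as a member when it held at least 500 UMIs (unique molecular identifiers, each standing for 1 captured RNA molecule) and at least 500 genes, with at most 20% mitochondrial UMIs, and when P2ry12, Tmem119 and Gpr34 together gave at least 5 UMIs. Of 17894 cells that passed the first 3 limits, 5678 met the rule. The CD45+ libraries held 5350 of them and the CD45- libraries 328. The sorts were run as separate libraries, so these counts do not show what part of the microglia fell below the gate.

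The tumors arose in mice that carried a conditional human EGFR transgene, Cdkn2a-/- and a conditional luciferase reporter, among other alleles, on a mixed background. A lentivirus expressing TGFa and iCre was injected into the brains of adult mice, so EGFR was switched on only in cells that received Cre. The Cdkn2a loss was present in every cell, microglia included. Whole brains without the cerebellum were perfused, dissociated, cleared of myelin and red cells, stained for CD45 and viability, sorted, and run on the inDrop droplet system as 4 libraries for each tumor sample and sort, over 3 runs. The labels name 3 tumor samples, early, medium and large, and each gave a CD45+ and a CD45- sort. The early sample was pooled from more than 1 mouse. With 1 tumor sample for each stage, stage cannot be told apart from the individual tumor sample, and no tumor-free brain was analysed here. The libraries of a tumor and sort are technical repeats, and where the CD45 gate was set is not given in the sources used here.

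Microglia are the resident macrophages of the brain. They arise from yolk sac progenitors, renew themselves locally, and survey the tissue through receptors such as P2RY12, which senses nucleotides released by injured cells, and CX3CR1, the receptor for a neuronal chemokine. CD45, the product of Ptprc, is a receptor tyrosine phosphatase on all nucleated blood-derived cells that sets the activity of Src family kinases. Resting microglia carry less of it on the surface than infiltrating macrophages and lymphocytes do, and cytometrists use that difference to separate them. Where the gate of this sort lay against the microglia is not known, and why microglia appeared in the CD45- sort was not tested.

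The median depth of the members was 2017 UMIs in the CD45+ sort and 2271.5 in the CD45- sort. By tumor it was 2030.5 against 2184 in the early, 1945 against 2592 in the medium and 2026 against 2832 in the large one. The CD45- members were thus deeper in each tumor, least so in the early one. The early, medium and large CD45- members summed to 549319, 169564 and 299808 UMIs, against 7876959, 1817768 and 2152523 in the CD45+ members. The median mitochondrial share of early, medium and large members was 4.57%, 3.91% and 2.93% in the CD45+ sort and 5.29%, 3.86% and 2.68% in the CD45- sort. Of the 328 CD45- members, 14 (4.27%) carried a cell barcode that a CD45+ library of the same run also held, and 8 of these barcodes belonged to a CD45+ member. Among the other CD45- cells 185 of 6348 (2.91%) shared a barcode in this way. With these 14 cells removed, Ptprc changed little. In members with at least 1% of UMIs from homeostatic genes, 19 higher and 15 lower genes were called in place of 24 and 16. Hnrnpll and Peli1, described below, were among the calls lost.

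The share of sorted cells that met the rule was lower in the CD45- fraction of every tumor, as the gate would set it. In the early tumor 3648 of 5110 CD45+ cells met it, or 71.4% (exact 95% interval 70.1 to 72.6), against 225 of 2760 CD45- cells, or 8.15% (7.16 to 9.24). The medium shares were 19.8% (18.6 to 21.1) of CD45+ cells and 3.77% (2.90 to 4.82) of CD45- cells. The large shares were 43.0% (40.9 to 45.1) and 1.83% (1.32 to 2.46). The CD45- share thus fell from early to medium to large without overlap of the pooled intervals, and the 4 early CD45- libraries, at 5.97% to 10.2%, lay above all medium ones, at 2.68% to 4.75%. The large CD45- libraries, at 0.867% to 2.41%, lay below the medium ones. The intervals cover counting error only. A share also depends on what else was sorted, and fewer microglia below the gate cannot be told apart from more cells of other types.

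**Figure D1:**
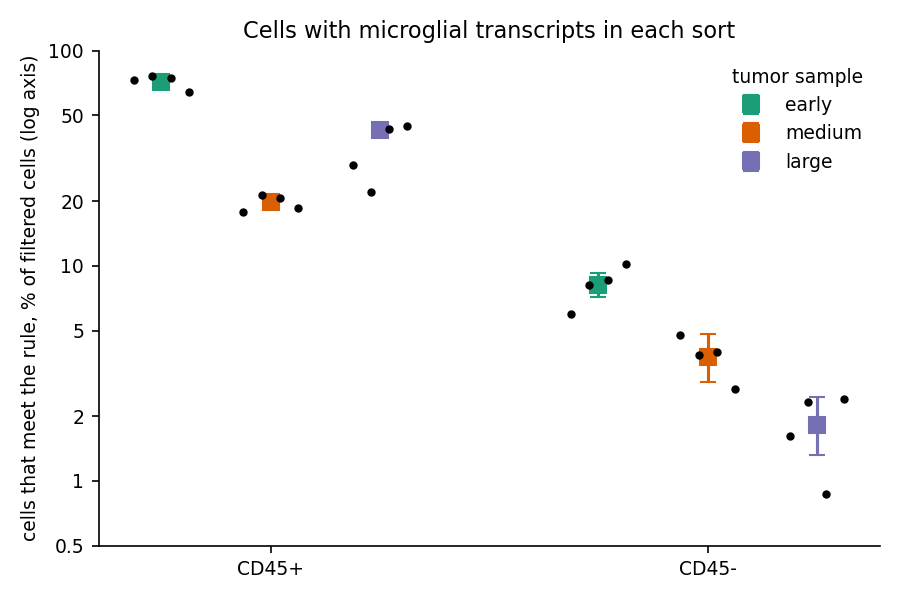
Share of filtered cells that met the microglia rule, in percent on a log axis, by sort and tumor sample. Squares are the pooled shares with exact 95% intervals and black points are the 4 libraries of each; the CD45- shares step down from 8.15% in the early to 1.83% in the large tumor.

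At the edge of the rule, the 24 CD45- cells with exactly 5 UMIs of the rule genes took a median of 4.49% of their UMIs from 25 homeostatic microglia genes that the rule does not use, among them Cx3cr1, Csf1r, Cst3 and Sparc. The 38 CD45- cells with 4 such UMIs, just outside, took 3.26%. In the CD45+ sort these medians were 5.61% in 398 cells with 5 UMIs and 4.76% in 430 cells with 4. With 5 UMIs, 17 of 24 CD45- and 396 of 398 CD45+ cells took at least 1% of their UMIs from the homeostatic genes, and with 4 UMIs 23 of 38 and 421 of 430 did. The rule genes themselves are given as a description, since they chose the cells. P2ry12 stood at 3716 CPM (the gene's share of all UMIs of the summed cells, scaled to parts per 1e6) in early, 2569 in medium and 2908 in large CD45+ members, and at 3907, 2748 and 1424 CPM in the CD45- members. Of these 6 values the large CD45- one was the lowest.

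The homeostatic genes showed that most CD45- members were microglia and that some were not plainly so. The median member took 7.08% of its UMIs from the 25 genes in the early CD45+ sort and 6.75% in the early CD45- sort. The medium medians were 5.81% and 5.42%, and the large ones 6.48% and 5.91%. Below 1% lay 6 of 5350 CD45+ members (0.112%) and 18 of 328 CD45- members (5.49%). In the large CD45- sample 14 of 42 members fell below it. These 14 cells held 10518 to 24943 UMIs each, all 14 held between 9 and 67 UMIs of the human EGFR transgene that marks tumor cells, and in 0 of 14 was a Ptprc UMI found. They met the rule with 5 to 16 UMIs of its genes. They carried 78.4% of the UMIs of all large CD45- members, and 8 of them came from 1 of the 4 libraries. The other 28 large CD45- members held 905 to 5510 UMIs, with 3.22% to 10.2% from homeostatic genes, and 2 of them held a transgene UMI. In the early CD45- sample 2 members fell below 1%. One of these took 76.3% of its 7839 UMIs from haemoglobin genes and the other 10.0% of its UMIs from oligodendrocyte genes.

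**Figure D2:**
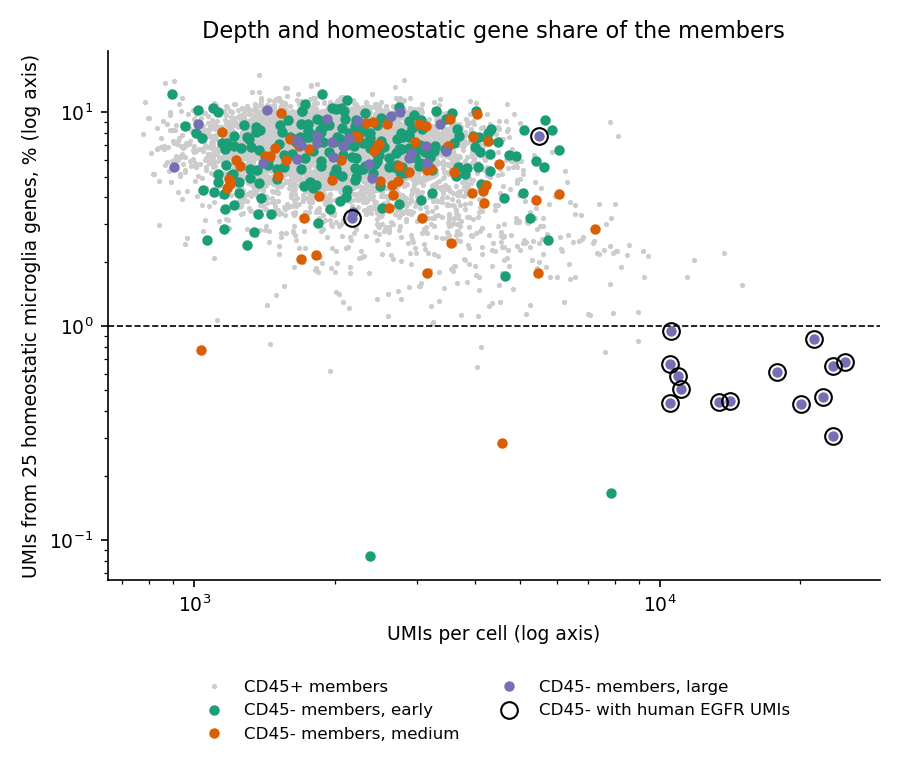
Each member's UMIs (log axis) against the percentage of its UMIs from the 25 homeostatic genes (log axis); grey points are CD45+ members, colored points CD45- members, and rings mark CD45- members with human EGFR UMIs. The 14 large-tumor cells below the dashed line at 1% lie at 10518 UMIs and above, apart from the other CD45- members.

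Because so few cells held most of the large CD45- UMIs, each result was computed for all members and again for those with at least 1% homeostatic UMIs, here called core members. This limit was chosen after the data were seen. It kept 5344 CD45+ members and 310 CD45- members (223 early, 59 medium and 28 large). It used the homeostatic genes, so their levels in core members are a description. In core members the rule genes and the homeostatic genes were level or higher below the gate in the large tumor: P2ry12 stood at 2909 CPM in CD45+ and 5462 CPM in CD45- members there. The summed homeostatic genes of core members stood at 69913, 51982 and 55723 CPM in the early, medium and large CD45+ sorts and at 67270, 54890 and 70755 CPM in the CD45- sorts. The large CD45- core members gave only 64815 UMIs together, so 1 UMI there stands for about 15.4 CPM.

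The question of the comparison was what differed in microglia that fell below the CD45 gate, and Ptprc, the gene of the sorted protein, is the direct check. Ptprc (ENSMUSG00000026395, minus strand of chromosome 1 from 138062861 to 138175708 in GRCm38) was not part of the rule. In core CD45+ members it stood at 203, 180 and 210 CPM (early, medium, large). In core CD45- members it stood at 169, 177 and 108 CPM. The CD45- value was the lower one in 3 of 3 tumors, by little in the medium one. The fitted difference was a log2 fold change of -0.33 (SE 0.26, 95% interval -0.84 to 0.18), with an adjusted p of 0.999 in edgeR's quasi-likelihood test. Over all members it was -0.99 (SE 0.58, interval -2.32 to 0.35, edgeR adjusted p 0.922), where the large CD45- value was 23.3 CPM with the 14 transgene-positive cells included. A loss of Ptprc mRNA was therefore not detectable, and the interval in core members reaches a fold change of -0.84 on the log2 scale.

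Counted by cells, Ptprc was found in 67 of 310 core CD45- members, or 21.6% (exact 95% interval 17.2 to 26.6), and in 1176 of 5344 core CD45+ members, or 22.0% (20.9 to 23.1). With every cell thinned to 1000 UMIs, which left out 3 CD45- and 82 CD45+ cells as too shallow, the shares were 10.7% and 13.8%. The tumors differed in direction. Before thinning the CD45- share was the higher one in the medium tumor (27.1% against 17.8%), and after thinning in the large one (18.5% of 27 cells against 15.7%). In each case it was the lower one in the other tumors. CD45- cells that should lack the gene had far fewer: 25 of 2966 oligodendrocytes (0.843%, median 2512 UMIs) and 5 of 379 endothelial cells (1.32%, median 1515 UMIs) held a Ptprc UMI, against a median depth of 2217 UMIs in the core CD45- members. The other CD45- cells together stood at 4.70 CPM of Ptprc, the core CD45- members at 165 CPM. The microglia below the CD45 gate thus held Ptprc mRNA far above the level of their CD45- neighbors. Surface CD45 was not measured in these files.

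Other genes of the leukocyte surface were read beside Ptprc. Itgam, the alpha chain of complement receptor 3, stood at 690, 720 and 865 CPM in core CD45+ and 620, 842 and 741 CPM in core CD45- members, and the groups overlapped (log2 fold change -0.08, SE 0.18). Cd53, a tetraspanin of blood cells, was higher below the gate in 3 of 3 tumors, at 1538, 1189 and 1882 CPM against 1423, 1098 and 1018 CPM, but missed the threshold (log2 fold change 0.32, SE 0.17, edgeR adjusted p 0.904). Laptm5, of the lysosomal membrane, and Selplg, the P-selectin ligand, had log2 fold changes of -0.05 (SE 0.16) and -0.04 (SE 0.16). Of the substrates and partners of CD45, Lyn, a Src family kinase that CD45 activates, had a log2 fold change of 0.09 (SE 0.19). Csk, the kinase that opposes CD45 on Src family kinases, was lower in 3 of 3 tumors, at 102, 104 and 77.1 CPM against 132, 130 and 175 CPM, and missed the threshold (log2 fold change -0.53, SE 0.30, edgeR adjusted p 0.953). In all, 0 of 12 leukocyte surface genes and 0 of 11 CD45 partner genes passed in edgeR. At an unadjusted p under 0.05, 1 surface gene was lower, and 0 partner genes were higher or lower. Over all genes tested in core members 0.407% passed and 5.59% had an unadjusted p under 0.05, so that these counts are near the background and are no result about these lists.

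**Figure D3:**
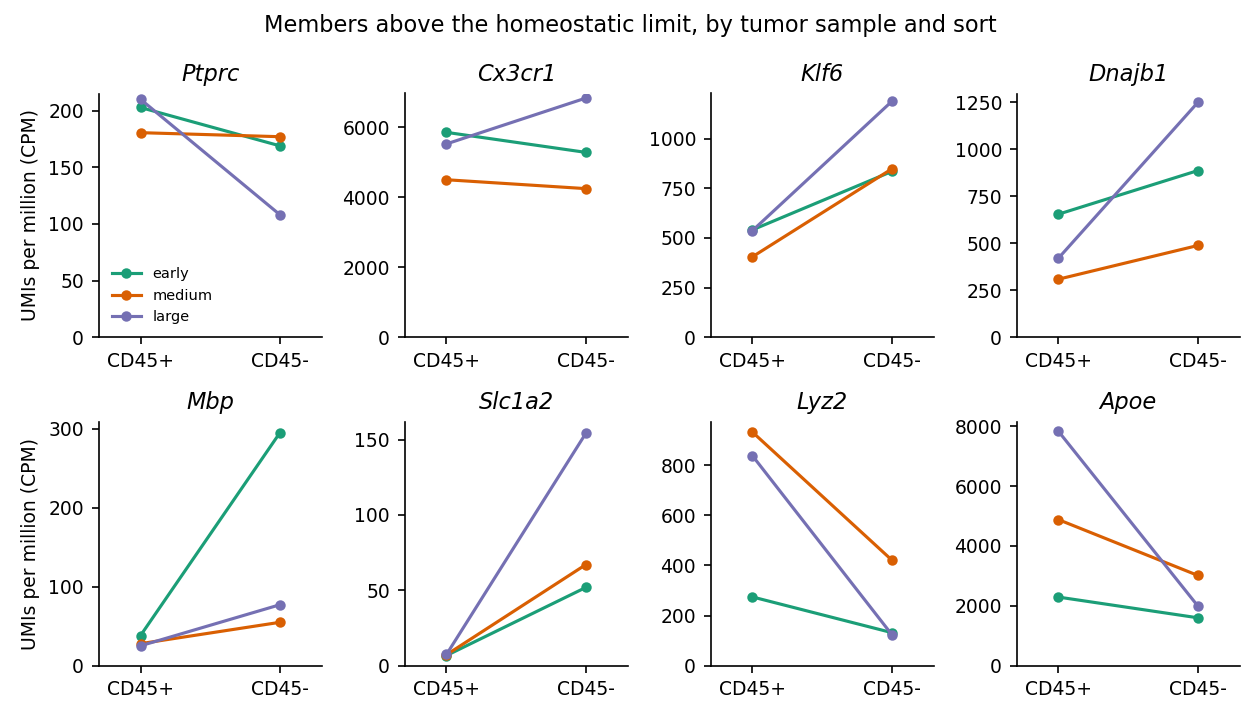
CPM of 8 genes in core members, CD45+ against CD45-, with a line for each tumor sample. Klf6, Dnajb1, Mbp and Slc1a2 are higher and Lyz2, Apoe and Ptprc lower in CD45- than in CD45+ members in all 3 tumor samples, Ptprc without passing the test, and Cx3cr1 is lower in 2 of 3.

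Across the transcriptome few genes separated the sorts. UMIs were summed for each tumor sample and sort, giving 3 pairs, and fitted in edgeR with the tumor sample as a block. Over all members 10009 genes were tested, 5 were higher (0.05% of those tested) and 5 lower (0.05%) in CD45- members at an adjusted p under 0.05, together 0.0999%, and 308 and 186 had an unadjusted p under 0.05. The 5 higher genes were Chl1, a neural adhesion molecule, Lpar1, a lysophosphatidic acid receptor of oligodendrocytes, Cpe, a peptide-processing enzyme of neuroendocrine cells and glia, and Mal and Cldn11, a lipid raft protein and a tight junction protein of myelin. Their log2 fold changes ran from 4.28 (SE 0.49) for Cldn11 to 5.28 (SE 0.58) for Chl1. Chl1 rested on the large tumor, where CD45- members held 219 UMIs against 2 (early) and 7 (medium), and it was not called in core members. Neither was Lpar1, with 46 of its 66 CD45- UMIs in the large tumor. Cpe had 157 of its 200 CD45- UMIs there, and in core members 3 of 33. The 5 lower genes were S100a9, S100a8, Camp, Ngp and Igkc, of neutrophils and B cells. All 5, and Lpar1 and Cpe among the higher ones, passed the filter on low counts only through the sort where they are high, so that their calls are a description.

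In core members the same test called 24 of 9816 genes higher (0.244%) and 16 lower (0.163%) below the gate, together 0.407%. At an unadjusted p under 0.05, 258 were higher and 291 lower. Without the tumor sample as a block the calls fell to 4 higher, Slc1a2, Aldoc, Cpe and Ndrg2, and 0 lower in core members (351 and 362 at an unadjusted p under 0.05), and to 0 in either direction over all members (545 and 283). DESeq2 called 12 higher and 5 lower in core members. The filter on low counts asked for at least 8.57 CPM in 3 of the 6 sums. In 6 of the 24 higher genes (Slc1a2, Aldoc, Kif5a, Cpe, Clu and Pcsk1n) no CD45+ sum reached this, and in 8 of the 16 lower genes (6 of neutrophils, Igkc and Mrc1) no CD45- sum did. These genes were tested only because 1 sort was high, so their calls and direction are a description and support nothing. Of the 24 higher genes 10, and of the 16 lower genes 5, reached it in all 3 sums of the sort where they are lower. Of the 24 higher genes, 16 stood higher in the other CD45- cells than in the CD45- members in 3 of 3 tumors, where 33.1% of all genes tested did. Of the same 24, 17 also stood higher in the other CD45+ cells than in the CD45+ members in 3 of 3 tumors, where 26.8% of all genes did. Of the 16 lower genes, 15 stood higher in the other CD45+ cells than in the CD45+ members in 3 of 3 tumors, Stab1 being the exception.

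Among the higher genes, those of oligodendrocytes, the myelin-forming cells that made up a large part of the CD45- sort, led. Of 15 oligodendrocyte genes tested, 8 were higher and 0 lower (median log2 fold change 1.84, against -0.08 over all genes tested). Of these 8, Car2 and Mal were higher in 2 of 3 tumors, and they were the ones among the 24 higher genes that did not go the same way in every pair. Mbp, the myelin basic protein gene, stood at 38.1, 27.9 and 25.1 CPM in early, medium and large core CD45+ members and at 295, 54.9 and 77.1 CPM in CD45- members, with no overlap between the groups (log2 fold change 2.14, SE 0.37, edgeR adjusted p 9.18e-06). Mobp and Cldn11, both of the myelin sheath, had log2 fold changes of 3.91 (SE 0.77) and 3.79 (SE 0.63), mostly on early CD45- UMIs, 69 and 99, against 1 to 3 in the other tumors. Without the early tumor the call of Mbp was lost (edgeR adjusted p 0.931), as it was without run 3 (0.0747).

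Astrocyte genes had fewer UMIs. Of 7 tested, 3 were higher and 0 lower (median log2 fold change 1.57), and these 3, Slc1a2, Aldoc and Clu, passed the filter only through the CD45- sums. Slc1a2, the main glutamate transporter of astrocytes, stood at 6.73, 7.24 and 7.45 CPM in CD45+ and at 51.9, 67.1 and 154 CPM in CD45- core members, with no overlap, on 49 CD45- UMIs (log2 fold change 3.40, SE 0.58). Aldoc, a glycolytic enzyme of astrocytes, had 3.37 (SE 0.75) and Clu, the clusterin gene, 3.20 (SE 0.83). The remaining higher genes among the 10 with the largest change were Kif5a, a neuronal kinesin, with 3.26 (SE 0.74), Cpe with 3.22 (SE 0.68), Pcsk1n, an inhibitor of prohormone processing, with 3.01 (SE 0.79), and Aplp1, an amyloid precursor-like protein, with 2.88 (SE 0.72). Of these 4, Aplp1 alone had a CD45+ sum above the filter, the early one. In Pcsk1n and Aplp1 the medium and large tumors gave 1 to 3 CD45- UMIs each.

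How widely this RNA was spread was read from the share of cells with a UMI. Mbp was found in 58 of 310 core CD45- members (18.7%, exact 95% interval 14.5 to 23.5) and in 226 of 5344 CD45+ members (4.23%, 3.705 to 4.804). In endothelial cells of the CD45- sort, which should lack it, the share was 15.0% (11.6 to 19.0) of 379 at a median of 1515 UMIs, and in T cells of the CD45+ sort 12.6% (8.37 to 17.9) of 207 at a median of 2227 UMIs. The CD45- members had a median of 2217 UMIs. These shares pool all tumors and their intervals cover counting error only, so they do not compare the cell types. Early cells made up 223 of the 310 CD45- members, 163 of the 379 endothelial cells and 73 of the 207 T cells. Where the Mbp RNA of these cells came from, T cells included, was not tested. For Cldn11 the shares were 9.35% in CD45- members, 7.92% in endothelial cells and 0.767% in CD45+ members. In CD45- members and endothelial cells the shares for Slc1a2 were 6.13% and 16.9%, and for the haemoglobin gene Hbb-bs 18.7% and 9.23%. After thinning to 1000 UMIs these shares were 10.1% and 11.7% for Mbp, 3.58% and 14.3% for Slc1a2, and 9.12% and 5.85% for Hbb-bs. Ttr, which the choroid plexus makes in quantity, was found in 22.9% of CD45- members and 14.8% of endothelial cells (12.1% and 11.1% after thinning), against 5.00% of CD45+ members. Each of these genes was found in at most 5.00% of the CD45+ members.

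**Figure D4:**
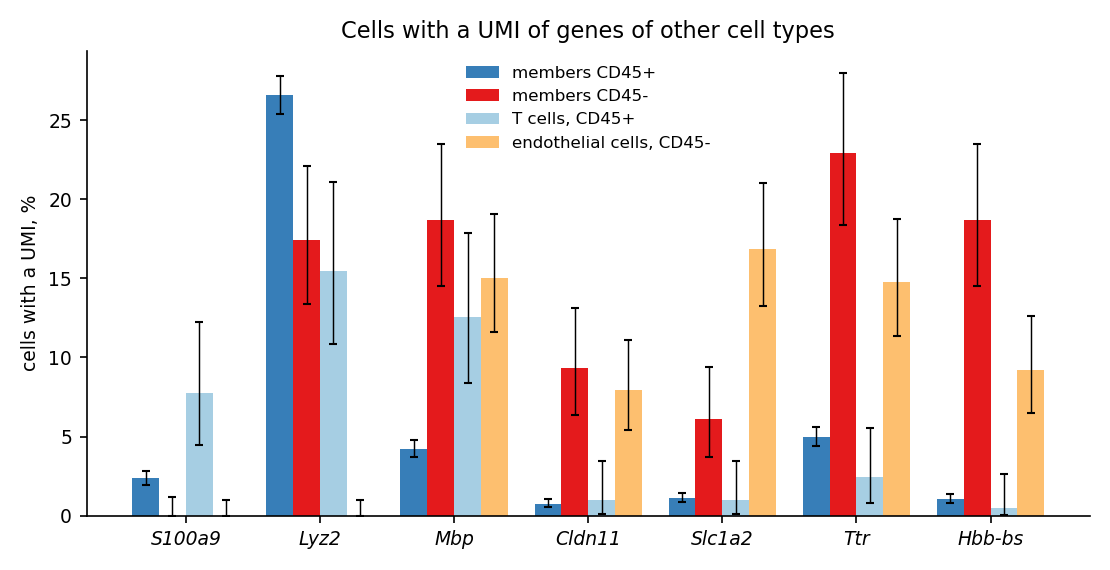
Percentage of cells with at least 1 UMI of 7 genes of other cell types, pooled over tumors, with exact 95% intervals for counting error. Shown are core members of each sort, T cells of the CD45+ sort and endothelial cells of the CD45- sort. Mbp was found in 18.7% of CD45- members and 15.0% of CD45- endothelial cells, and S100a9 in 0 of either.

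In level, the summed oligodendrocyte genes of the CD45- members lay below those of the endothelial cells. They stood at 911, 537 and 711 CPM in core CD45+ and at 4426, 695 and 1265 CPM in core CD45- members. In the endothelial cells of the CD45- sort they stood at 11389, 3097 and 10972 CPM, and in all other CD45- cells at 64635, 43758 and 31269 CPM. The early CD45- members were the highest of the member groups by some margin. Astrocyte genes summed to 331, 244 and 257 CPM in CD45+ and 454, 567 and 540 CPM in CD45- core members. Genes of endothelial cells (0 of 6 tested), neurons (0 of 2), ependymal cells (0 of 2), choroid plexus (0 of 1), mural cells or fibroblasts (0 of 1) and oligodendrocyte progenitors or glioma (0 of 1) gave no call, and at an unadjusted p under 0.05 edgeR gave 1 higher gene each for endothelial cells, choroid plexus and progenitors. Erythroid genes were not tested in core members. They stood at 362 CPM in early CD45- members and 28.2 CPM in early CD45+ members. The part of RNA from neighboring cells in these differences was not tested.

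The lower genes were led by those of neutrophils, the granulocytes that the CD45+ sort holds. Of 9 neutrophil genes tested 6 were lower and 0 higher in core CD45- members. These 6 had 0 or 1 UMI in the CD45- members and entered the test only through the CD45+ side, where they are high, so that their count and direction are a description. S100a9, a subunit of calprotectin (ENSMUSG00000056071, chromosome 3, 90692632 to 90695721, GRCm38), had 1727, 2001 and 1403 UMIs in the early, medium and large CD45+ members, or 219, 1114 and 653 CPM. It had 0 UMIs in the 310 CD45- members, which by UMIs is at least 111-fold lower against a floor of 3 UMIs over the group. S100a8, its partner, was at least 65.2-fold lower, the antimicrobial peptide gene Camp at least 16.5-fold, and the iron-binding proteins Lcn2 and Ltf at least 8.14-fold and 6.28-fold. Ngp, a granule protein, had 1 UMI against 1623, a ratio of 105 (counting interval 18.9 to 4167). These UMIs were clumped. S100a9 was found in 126 of 5344 CD45+ members (2.36%), with up to 986 UMIs in a cell. It was found in 0 of 310 CD45- members, which allows a share of up to 0.968% by the floor of 3 counts. That is a limit on cells with a UMI and not on cells that express it. The folds and the counting interval above treat each UMI as independent, so they are no bounds on a difference between cells. In the other CD45- cells 0 of 6348 held it, and in T cells of the CD45+ sort 16 of 207 (7.73%).

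Genes of other leukocytes gave fewer calls. Igkc, the kappa light chain of B cell antibodies, had 1 UMI in CD45- against 1948 in CD45+ members, a ratio of 127. Its counting interval of 22.7 to 5001 treats each UMI as independent and is no bound, since 1191 of the 1219 early UMIs lay in 1 cell. Igkc was 1 of 4 B cell genes tested, and the only call, a description since it passed the filter only through the CD45+ sums. Of 4 T or NK cell genes 1 was lower, the chemokine Ccl5, at 57.0, 80.8 and 49.8 CPM against 16.7, 18.3 and 0 CPM (log2 fold change -2.04, SE 0.51, edgeR adjusted p 0.0214). Ccl5 had 9, 3 and 0 CD45- UMIs. Its call was lost without any 1 tumor, without any 1 run, in DESeq2 (adjusted p 0.499) and in edgeR without the block (0.196). Of 11 macrophage or monocyte genes 1 was lower, Mrc1, the mannose receptor of perivascular macrophages. It had 179, 25 and 78 UMIs in the CD45+ members against 0, at least 6.11-fold lower with each UMI counted as independent. Mrc1 also passed the filter only through the CD45+ sums, so its call is a description. The macrophage or monocyte genes summed to 181, 413 and 486 CPM in CD45+ and 89.0, 116 and 154 CPM in CD45- core members. Dendritic cell genes gave 0 calls of 3, and 0 at an unadjusted p under 0.05. In the large tumor the summed B cell genes, at 447 against 398 CPM, and the summed dendritic cell genes, at 1065 against 791 CPM, were higher in CD45- members.

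Of the lower genes, Apoe and Lyz2 carried the most UMIs. Lyz2, a lysozyme of myeloid cells, stood at 274, 932 and 837 CPM in early, medium and large core CD45+ members and at 132, 421 and 123 CPM in CD45- members (log2 fold change -1.44, SE 0.20, edgeR adjusted p 2.88e-09). Each pair fell, while the early CD45+ value lay below the medium CD45- one. Lyz2 was found in 26.6% of CD45+ and 17.4% of CD45- members, or 16.95% and 9.45% after thinning to 1000 UMIs. T cells of the CD45+ sort held it in 15.5% and endothelial cells of the CD45- sort in 0 of 379. Its neighbor and near copy Lyz1, whose reads the counting could have split with it, fell as well (log2 fold change -1.41, SE 0.27). In the other CD45+ cells Lyz2 stood at 2633, 4092 and 3382 CPM, above the members in each tumor.

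Apoe, the lipid carrier that reactive microglia and tumor macrophages raise, stood at 2291, 4878 and 7828 CPM in CD45+ and at 1599, 3013 and 1990 CPM in CD45- core members (log2 fold change -1.06, SE 0.16, edgeR adjusted p 2.35e-07). It was found in 75.0% of CD45+ and 72.9% of CD45- members, pooled over tumors and not thinned to equal depth. These shares cannot tell a fall in UMIs per cell from one in cells with a UMI. The fall in CPM was widest in the large tumor, and without that tumor the call was lost (log2 fold change -0.60, SE 0.13, edgeR adjusted p 0.0959). In the other CD45+ cells Apoe stood at 7124, 11246 and 26656 CPM, also highest in the large tumor. Apoe was called in 14 of 18 other settings, the exceptions besides that tumor being DESeq2 (0.155), the fit without the block (0.652) and members chosen with 3 UMIs of the rule genes (0.999). Lgals1, the gene of the sugar-binding protein galectin-1, fell from 22.2, 133 and 112 to 5.57, 42.7 and 15.4 CPM (log2 fold change -1.97, SE 0.48, edgeR adjusted p 0.0160), on 3, 7 and 1 CD45- UMIs. Its call was lost without any 1 tumor, without any 1 run, in DESeq2 (adjusted p 0.416) and in edgeR without the block (0.784).

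Lyz2 and Apoe belong to the list of disease-associated microglia genes, a program of phagocytic and lipid genes known from neurodegeneration. Of 22 tested in core members these 2 were lower and 0 higher, 11 were lower in 3 of 3 tumors where 18.9% of all genes were, and the median log2 fold change was -0.49. Ctsd, the lysosomal protease cathepsin D, stood at 6750, 8709 and 7390 CPM in CD45+ and 5094, 6661 and 5091 CPM in CD45- members, the groups not overlapping, and missed the threshold (log2 fold change -0.48, SE 0.15, edgeR adjusted p 0.204). Ctsb and Fth1, a second protease and the ferritin heavy chain, had -0.26 (SE 0.16) and -0.48 (SE 0.16). At an unadjusted p under 0.05 in edgeR, 9 of the 22 were lower and 0 higher in core members. Over all members 0 of 23 genes of this list were called, and 4 were lower at an unadjusted p under 0.05 in edgeR. Lipid handling genes gave 1 call, Apoe, of 13 in core members, and genes of phagocytosis and lysosome 0 of 19, with 2 lower at an unadjusted p under 0.05. Of all genes tested in core members 0.163% were called lower in edgeR. At an unadjusted p under 0.05, 291 of 9816 genes were lower in core members and 186 of 10009 over all members.

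Of the 24 higher genes, Klf6 and Dnajb1 were the ones that stood at least 2-fold higher in CD45+ members than in the other CD45- cells in all 3 tumors. Of 479 such genes with a log2 fold change above 0 these 2 were called (0.418%) and 33 had an unadjusted p under 0.05 (6.89%), near the 0.567% and 6.10% of all 4232 genes tested with a log2 fold change above 0. Of 99 genes with a log2 fold change below 0 that stood 2-fold above both the other CD45- and the other CD45+ cells, 0 were called in edgeR and 2 had an unadjusted p under 0.05 (2.02%), where 0.287% and 5.21% of all 5584 such genes did. Klf6, a zinc finger transcription factor switched on early by many stimuli, stood at 540, 405 and 537 CPM in core CD45+ and at 835, 848 and 1188 CPM in core CD45- members (log2 fold change 0.89, SE 0.18, edgeR adjusted p 0.000289). The groups did not overlap. It was found in 54.2% of CD45- members (exact 95% interval 48.5 to 59.8) and 40.1% of CD45+ members (38.8 to 41.5), or 43.6% and 27.9% after thinning to 1000 UMIs. These shares pool all tumors, and their intervals cover counting error only. In endothelial cells of the CD45- sort the share was 19.3%, and all other CD45- cells stood at 113, 173 and 232 CPM, below the members. The other CD45+ cells held Klf6 at 600.4, 333 and 378 CPM, above the CD45+ members in the early tumor and below them in the other two. Klf6 was called in 12 of 18 other settings. The call was lost without run 1 (edgeR adjusted p 1.00, log2 fold change 0.63), without the medium tumor (0.363), without the block (0.194), without the filter on low counts (0.174), in thinned members (0.112) and in DESeq2 (0.0568), and the direction was kept in each.

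Dnajb1, a heat shock cochaperone of the HSP70 machine, stood at 654, 309 and 420 CPM in CD45+ and 887, 488 and 1250 CPM in CD45- core members, higher in each pair with overlap between groups (log2 fold change 0.82, SE 0.18, edgeR adjusted p 0.00269). It was called in 8 of 18 other settings, and without the large tumor its log2 fold change was 0.55 (SE 0.17, edgeR adjusted p 0.486). Runs 1, 2 and 3 were each needed for its call. A few further called genes were neither 2-fold above the other CD45- cells nor of a marker list, and are named after their values were seen: Peli1, an E3 ubiquitin ligase of Toll-like receptor signaling (log2 fold change 0.93, SE 0.24), Akap5, a kinase anchor (1.34, SE 0.35), and Hnrnpll, a splicing regulator of leukocytes (0.83, SE 0.21), each with an edgeR adjusted p of 0.0316. Peli1 stood at 725 CPM in the large CD45- members against 159 to 200 CPM in the other CD45- ones, and without that tumor its adjusted p was 1.00. Hnrnpll without run 1 had a log2 fold change of -0.013, and its call and that of Peli1 were lost with the 14 cells of shared barcodes removed (edgeR adjusted p 0.152 and 0.0551). Akap5 was called in 6 of 18 other settings. Its call was lost without any 1 tumor, without any 1 run, in DESeq2 (adjusted p 0.332) and in edgeR without the block (0.219).

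The lists that Klf6 and Dnajb1 belong to moved unevenly. Of 23 immediate-early genes, which cells transcribe within minutes of a stimulus, 1 was called higher and 0 lower, with 9 higher and 1 lower at an unadjusted p under 0.05. Of all 9816 genes tested in core members 0.244% were called higher in edgeR, and 258 were higher and 291 lower at an unadjusted p under 0.05. In core members 12 of the 23 were higher in 3 of 3 tumors, where 10.1% of all genes were, and the list's median log2 fold change was 0.31. Fos stood at 2490, 2306 and 3545 CPM in CD45+ and 2851, 2794 and 5554 CPM in CD45- members (log2 fold change 0.33, SE 0.16, edgeR adjusted p 0.806), and Btg2 had 0.31 (SE 0.16). Junb and Nfkbia, at -0.02 (SE 0.16) and -0.11 (SE 0.16), did not share that direction. Over all members 0 of the 23 were called and 0 were higher in 3 of 3 tumors. Heat shock genes gave 1 call of 13. Hspa1b, an inducible HSP70, was lower in 3 of 3 tumors, at 506, 445 and 417 CPM against 826, 467 and 444 CPM, and missed the threshold (log2 fold change -0.36, SE 0.19, edgeR adjusted p 0.895).

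Antigen presentation genes gave no call between the sorts and were highest in the medium tumor in both. MHC class I genes summed to 7448, 15606 and 4168 CPM in early, medium and large core CD45+ members and to 9100, 14389 and 4490 CPM in CD45- members. MHC class II genes summed to 3435, 21972 and 2439 CPM in CD45+ and 6062, 20495 and 339 CPM in CD45- members. The large CD45- value rests on 28 cells, in which H2-Aa had 0 UMIs. Class I gave 0 calls of 12 and class II 0 of 8. For Cd74, the invariant chain, the log2 fold change was -0.13 (SE 0.88). B2m, the light chain of class I, had 0.17 (SE 0.16). Differences between the tumor samples were not tested, since each stage has 1 sample.

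The homeostatic list, read over all members, gave 0 calls of 25 and 0 at an unadjusted p under 0.05 in either direction. Its median there was -0.64, with the 14 transgene-positive large cells included. In core members, where it was used for the limit, Cx3cr1 stood at 5854, 4499 and 5523 CPM in CD45+ and 5281, 4245 and 6835 CPM in CD45- members (log2 fold change -0.02, SE 0.15), and Csf1r, the receptor for the survival factor of microglia, had 0.00 (SE 0.15). Cst3 and Sparc had 0.15 (SE 0.15) and 0.03 (SE 0.15). Cx3cr1 was found in 96.8% of CD45- and 99.3% of CD45+ members. In CD45- endothelial cells the share was 1.06%, a contrast that the choice of members fixed.

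The other state lists also gave no call in core members in edgeR, where 0.407% of all genes tested were called: complement (0 of 10, 1 lower at an unadjusted p under 0.05), inflammatory genes (0 of 21, 2 higher and 3 lower), interferon-stimulated genes (0 of 14, 3 higher and 1 lower), cell cycle (0 of 22, 2 lower), apoptosis and stress (0 of 14, 0) and nuclear RNA (0 of 2, 0). C1qa, a subunit of complement C1q, stood at 5157, 6256 and 5147 CPM in CD45+ and 4279, 5843 and 5261 CPM in CD45- members. Among inflammatory genes Il1b had a log2 fold change of -0.40 (SE 0.18) and Tnf one of 0.37 (SE 0.17), both with an unadjusted p under 0.05 and edgeR adjusted p of 0.725 and 0.796. Of the interferon-stimulated genes Isg15 was at 25.9, 120 and 23.7 CPM in CD45+ and 102, 104 and 123 CPM in CD45- members (log2 fold change 1.27, SE 0.36, edgeR adjusted p 0.0831), higher in 2 of 3 tumors. Ifi27l2a of the same list was at 18.8, 154 and 20.5 CPM in CD45+ and 3.71, 48.8 and 0 CPM in CD45- members (log2 fold change -1.96, SE 0.55, edgeR adjusted p 0.0823), lower in 3 of 3. Neither passed the threshold. Genes of cytosolic ribosomal proteins, a list taken up after the data were seen, gave 0 calls of 82, while 59 were lower in 3 of 3 tumors and their median log2 fold change was -0.31, against 18.9% of all genes tested lower in 3 of 3 and a median of -0.08.

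**Figure D5:**
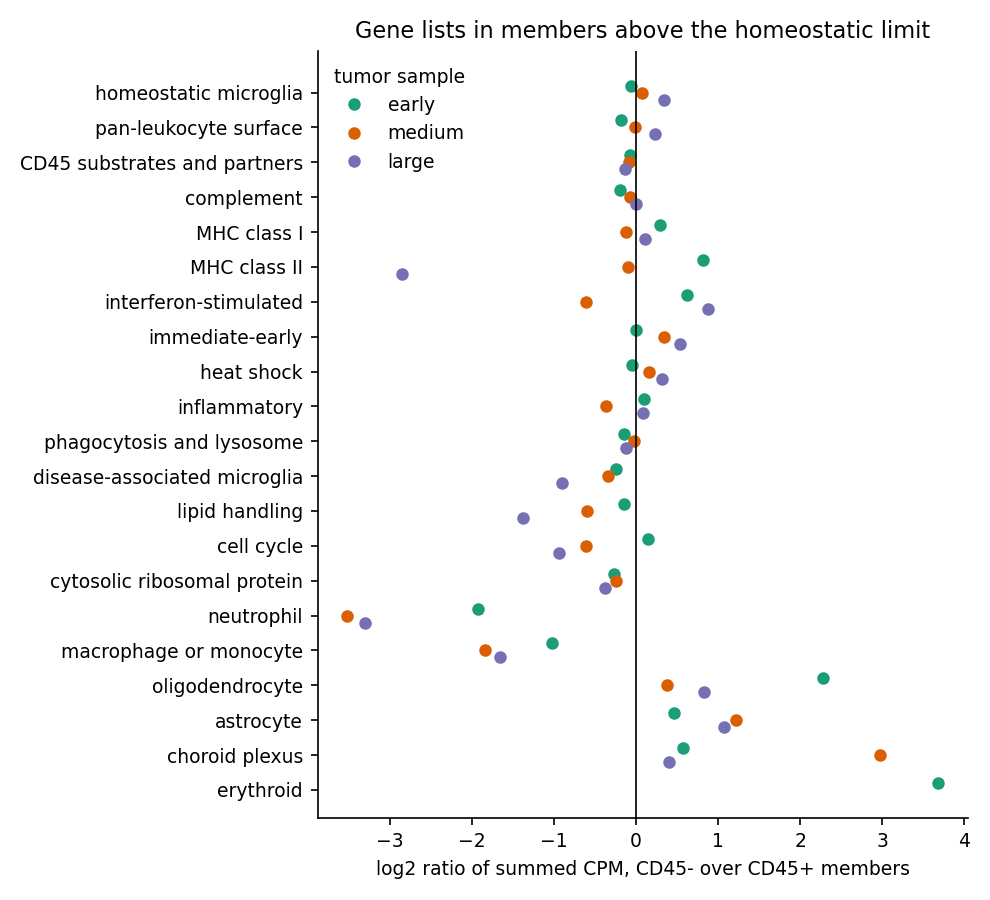
Log2 ratio of the summed CPM of each gene list, CD45- over CD45+ core members, with a point for each tumor sample; sums at 0 UMIs in either sort have no point. Homeostatic, leukocyte surface and CD45 partner lists lie near 0, neutrophil and macrophage lists to the left and oligodendrocyte and astrocyte lists to the right in all 3 tumor samples.

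With every member removed that took over 1% of its UMIs from genes of other cell types, 38 of 328 CD45- (11.6%) and 115 of 5350 CD45+ members (2.15%), the core test called 9 genes higher and 3 lower. The higher ones included Ttr, Slc1a2, Cpe, Clu, Kif5a, Klf6, Hnrnpll and Dnajb1, and the lower ones Apoe, Lyz2 and Lgals1. Klf6 had a log2 fold change of 0.95 (SE 0.18, edgeR adjusted p 0.000443), Lyz2 -1.15 (SE 0.22, 0.000157) and Apoe -1.04 (SE 0.17, 5.61e-06) in this fit. The neutrophil genes S100a9, S100a8, Camp and Ngp were then too low to be tested, and Mbp was no longer called, at 1.39 (SE 0.46, 0.375). These genes are in the lists by which members were removed, so their loss was in part set by the removal and is a description. Ptprc had -0.23 (SE 0.27).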

How the data were processed

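RNA of sorted cells was captured with inDrop in 24 libraries. Per the labels and methods, the authors aligned reads to the mouse transcriptome with RapMap in bcbio-nextgen and deposited UMI counts per gene and cell. Their methods include ambient RNA and doublet removal, and whether the deposited counts precede it is not stated. The deposited cell table (20811 cells, 50262 genes) gave each cell's library. Cells were filtered and members chosen as the report states. The members and the 30 gene lists were chosen with earlier results of these data known. UMIs were summed by tumor sample and sort (6 sums) and tested with edgeR 4.0.16 in R 4.3.3 (TMM, low-count filter, quasi-likelihood, tumor sample as a block), with Benjamini-Hochberg adjustment over all genes tested and a threshold of 0.05. The 3 rule genes were left out of the tests. The SE is the log2 fold change over the root of F. The block comes from the design, since both sorts of a pair come from the same tumor suspension. Deviations of same-tumor sums correlated at r = 0.105 to 0.242 over all members and at 0.0887 to 0.140 in core members. The p-values and SEs rest on a spread that edgeR pools over genes, with 2 residual degrees of freedom from 3 tumors of different stages. The median prior degrees of freedom were 6.33 over all members and infinite in core members. For most genes in core members the spread was thus the trend over all genes. A gene's own spread over the pairs had almost no weight there. Simulated counts had these depths, a fixed dispersion and no differences between tumors, and the changed genes were drawn only from well-counted ones. In them 30% of 2-fold and 82% of 4-fold changes were recovered in core members, and 3% and 56% over all members. These shares do not extend to genes with few UMIs. Of 118 simulated calls in core members 6 were false, and of 59 over all members 0.

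Genes were named by rule: the rule genes and Ptprc, the 10 called genes with the largest change in each direction (at least 30 UMIs, the same way in 3 of 3 pairs, no predicted gene), the same among genes at least 2-fold higher in CD45+ members than in the other CD45- cells (for lower genes also than in the other CD45+ cells), and up to 4 genes of each list with the most UMIs. Reference cells had at least 5 UMIs of endothelial genes, at least 3 of T cell genes, or at least 3% of oligodendrocyte genes. DESeq2 1.42.0 was an alternative. Scrublet (scanpy 1.11.5) called 139 of 17786 cells as doublets, which were kept except in 1 alternative. Exact intervals are Clopper-Pearson at 95%, treat each cell as independent and cover counting error only. Positions are from a GRCm38 annotation. Some genes that the rule selects and some alleles are not reported here.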

Additional observations from a re-analysis of the deposited data

Results flagged for a closer look

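In 36 groups of 4 libraries, 4 values stood apart from the other 3 libraries by a gap that took up nearly the whole range of the group (Dixon's criterion). Chance does this in about 1 of 20 groups of normally distributed values of equal precision. These libraries differed in depth, so that rate need not hold here. In the early CD45+ sort 1 library had 3360 CPM of oligodendrocyte genes in its members, against 709, 830 and 890 CPM. In the early CD45- sort 1 library had 29035 CPM of erythroid genes, against 262 to 360 CPM, and it holds the cell with 76.3% haemoglobin UMIs. In the large CD45+ sort 1 library had 4.12 CPM of erythroid genes against 0 in the others, where any value above 0 would have stood apart. In the large CD45- sort 1 library had a median of 5510 UMIs in its members, against 2038.5 to 2590. The part of these libraries in the differences between sorts was tested only by leaving out each run.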

How the results depend on the processing

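The large core CD45- sum held 64815 UMIs. At these depths, this spread and 3 pairs, most simulated 2-fold changes were not found, and the part of depth alone was not tested. Ptprc was lower in CD45- members and missed the threshold in each alternative run over all and over core members. The 1% limit that defines core members and the removal of 14 CD45- members with a shared barcode (6 higher and 5 lower over all members, 19 and 15 in core members) were chosen after the data were seen.

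Over all members (5 higher, 5 lower, 0 called genes in state lists and 7 in lists of other cell types), the fit without the tumor sample as a replicate block called 0 higher and 0 lower, with 0 of other cell types. The pairing mattered in core members too (24 higher, 16 lower, 4 of state lists, 20 of other cell types), where without the block 4 and 0, with 0 and 2 in the lists, were called.

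The other alternatives moved counts over all members as follows. DESeq2 called 51 higher and 8 lower, with 1 state and 27 other-type genes. No filter on low counts gave 212 and 43, with 7 and 45. No TMM gave 13 higher. A minimum of 3 rule UMIs gave 112 higher, 1 state and 22 other-type genes, and one of 8 gave 2 and 0, with 1 other-type gene. Thinning to 1000 UMIs gave 11 and 3, with 1 state gene. Removing members over 1% oligodendrocyte UMIs gave 3 higher, of which Crip2 was not among the 5, over 1% of other types 2 and 0 with 1 other-type gene, and Scrublet calls 2 higher. Every deposited cell of the rule gave 12 higher.

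In core members DESeq2 called 12 and 5, with 1 state and 12 other-type genes. A minimum of 3 rule UMIs gave 43 higher, and one of 8 gave 8 and 2, with 3 other-type genes. Thinning gave 4 and 4, with 2 and 6. Removing members over 1% of other types gave 9 and 3, with 4 other-type genes, and removing Scrublet calls 15 higher, with 13.

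Leaving out each run gave 0 to 10 higher, 3 to 4 lower, 0 state and 3 to 6 other-type genes over all members, and 4 to 19, 6 to 13, 2 to 3 and 7 to 10 in core members. Leaving out each tumor gave 0 to 15, 0 to 9, 0 to 1 and 0 to 14 over all members, and 9 to 34, 9 to 16, 2 to 6 and 11 to 18 in core members. The fewest higher calls in core members, 4, came without run 1, and the fewest lower, 6, without run 1 or run 2. Ptprc ran from -1.55 to -0.19 over all and from -0.63 to -0.05 in core members. Without the medium tumor 0 genes were called over all members in edgeR (422 higher and 135 lower at an unadjusted p under 0.05). Hnrnpll without run 1 was -0.013. Of the other values of named genes, 108 over all members and 370 in core members kept their side of the threshold, and 30 and 265 missed it. The cause of these changes was not tested.

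Early, medium and large shares moved with the rule. At 3 rule UMIs they were 78.8%, 27.7% and 53.3% in CD45+ and 9.46%, 5.26% and 3.04% in CD45-, and at 8 they were 57.8%, 13.1% and 31.7%, and 6.63%, 2.66% and 1.26%. Over every deposited cell they were 68.4% in early CD45+ and 6.44% and 2.59% in early and medium CD45-. Thinned to 1000 UMIs with 3 rule UMIs they were 68.2%, 18.4% and 38.5% in CD45+ and 1.04% in large CD45-. With at least 1% homeostatic UMIs the large CD45- share was 1.22%. Run 1 alone gave 72.7%, 17.8% and 23.1% in CD45+ and 5.97% in early CD45-. Run 2 alone gave 76.0% in early CD45+ and 0.867% in large CD45-. Run 3 alone gave 68.9% and 18.5% in early and medium CD45+, and 9.24%, 2.68% and 2.41% in early, medium and large CD45-. In run 1 the CD45- intervals of early (4.26% to 8.11%) and medium (2.74% to 7.60%) overlapped, as did those of medium and large (1.32% to 3.00%). In run 3 those of medium (1.35% to 4.75%) and large (1.25% to 4.18%) overlapped. In run 2 none did. The order of the CD45- shares was the same in each run.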
